A study of Caenorhabditis elegans with 8 samples.

Results

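The genes described here encode the origin recognition complex, which marks replication origins on DNA, and the loaders that place the replicative helicase there. They were chosen by name: orc-1, orc-2, orc-3, orc-4, orc-5, cdc-6 and cdt-1. All 7 were in the authors' deposited table, among 16031 genes. RNA was measured by RNA-seq in Caenorhabditis elegans females, in RNA that came down with LIN-41 or OMA-1 and in whole-animal lysates. LIN-41 and OMA-1 are RNA-binding proteins of growing oocytes that control translation, and the study asked which mRNAs each one holds. The 2 LIN-41 immunoprecipitates (IPs) came from worms with GFP placed at the lin-41 locus, allele tn1541, which joins gfp::tev::s to lin-41, together with fog-1(q253ts). The 2 OMA-1 IPs came from fog-1(q253ts); oma-1(zu405te33) worms that also held tnIs17, a transgene with GFP fused to oma-1 under the oma-1 promoter and with unc-119(+). Both IPs were made with a mixture of the anti-GFP antibodies 12A6 and 4C9, and their libraries were made with no depletion of ribosomal RNA. Each genotype also gave 1 lysate depleted of ribosomal RNA and 1 lysate without depletion, so that there were 8 libraries in 6 groups. The labels give every library a strain name of its own, and the groups here follow the genotype. All groups carried the temperature-sensitive fog-1 allele, which stops sperm from forming at 25 °C, and young adults were taken once they had fed for about 48 h at that temperature.

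In most animals the origin complex binds DNA, CDC6 and CDT1 join it, and together they load the MCM helicase in an inactive form before S phase. Loading is then blocked until the next cycle, by geminin and, in worms, by degradation of CDT-1 through the CUL-4 ubiquitin ligase. Oocytes store mRNAs and proteins for the rapid S phases of the embryo, and such mRNAs are commonly held back from translation by RNA-binding proteins until the egg is made.

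Only values pooled over libraries were analysed here, so that no value has a spread between replicates. Levels are FPKM, read fragments scaled to transcript length and sequencing depth, and can be compared between genes. Each log2 ratio sets an IP against both depleted lysates pooled, so both IPs share that denominator. Scaling all columns to equal FPKM totals shifts every LIN-41 log2 ratio by -0.95 and every OMA-1 log2 ratio by -1.33. No IP from untagged worms is among the 8 libraries, so binding and carry-over cannot be told apart, nor can an effect of depletion and one of the IP. The authors' deposited table marked none of the 7 genes as affected by poorly mapped reads. Their baseMean, the mean read count over samples, lay between 299 and 56465, against a median of 44.4 over all genes. The oocyte markers rme-2, puf-5, oma-2 and cpg-1 of the authors' deposited table summed to 7442 FPKM in the LIN-41 IPs, 13559 FPKM in the OMA-1 IPs and 2102 FPKM in the lysates. The germ line markers glp-1, gld-1, pgl-1 and glh-1 summed to 1739 FPKM in the LIN-41 IPs, 7390 FPKM in the OMA-1 IPs and 678 FPKM in the lysates of the authors' deposited table. The intestine markers vit-2, vit-6 and ges-1 summed to 938 FPKM in the LIN-41 IPs, 702 FPKM in the OMA-1 IPs and 3120 FPKM in the lysates of the authors' deposited table. The sperm markers spe-9 and fer-1 were at 0.13 and 0.09 FPKM in the lysates in the authors' deposited table. Both oocyte and germ line sums were thus higher in each IP than in the lysates, but not every marker was. Of the 4 germ line markers, glh-1 was lower in both IPs, with 74.1 FPKM in the LIN-41 IPs, 93.8 FPKM in the OMA-1 IPs and 111 FPKM in the lysates of the authors' deposited table. In the authors' deposited table pgl-1 was also lower with OMA-1, at 150.0 FPKM in the OMA-1 IPs and 161 FPKM in the lysates. The neuron markers unc-119, rab-3 and snb-1 summed to 138 FPKM in the LIN-41 IPs, 153 FPKM in the OMA-1 IPs and 86.5 FPKM in the lysates of the authors' deposited table. Body wall muscle and hypodermis markers had lower sums in both IPs, namely 175 and 374 FPKM in the LIN-41 IPs, 378 and 192 FPKM in the OMA-1 IPs, and 458 and 726 FPKM in the lysates of the authors' deposited table. Single mRNAs weighed heavily in these sums, as gld-1 alone had 6303 FPKM in the OMA-1 IPs. Of the hypodermis sum in the lysates, col-19 alone made up 725 FPKM. The hypodermis marker rol-6, at a very low level, was higher in the LIN-41 IPs (1.04 FPKM) than in the lysates (0.56 FPKM). In the IPs the sums count RNA that came down with a protein, so they give neither the number of cells of a type nor RNA per cell. The part of such capture in these shifts, and of these shifts in the ratios below, was not tested.

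The mRNA of orc-1, which encodes the largest subunit of the complex in other animals and an ATPase, stood apart from the other 6 genes. In the authors' deposited table, orc-1 (WBGene00012650, chromosome III 10643129 to 10646058 in WBcel235) had 9817 FPKM in the LIN-41 IPs, 355 FPKM in the OMA-1 IPs and 100.5 FPKM in the lysates. It was thus 97.7-fold higher in the LIN-41 IPs and 3.54-fold higher in the OMA-1 IPs than in the lysates. By FPKM in the authors' deposited table, orc-1 was the 7th most abundant of all 16031 transcripts in the LIN-41 IPs, the 576th in the OMA-1 IPs and the 559th in the lysates. Its share of all FPKM was 1.29% in the LIN-41 IPs, 0.0353% in the OMA-1 IPs and 0.0255% in the lysates. Its log2 ratio in the authors' deposited table was 6.60 for LIN-41 and 1.82 for OMA-1. Its Benjamini-Hochberg adjusted p there was listed as 0 for LIN-41 and was 5.48e-85 for OMA-1. The enrichment with LIN-41 held under every scaling tried, between 4.74 and 6.60, whereas that with OMA-1 was -0.038 with quantile normalization and 0.49 with equal FPKM totals.

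**Figure D1:**
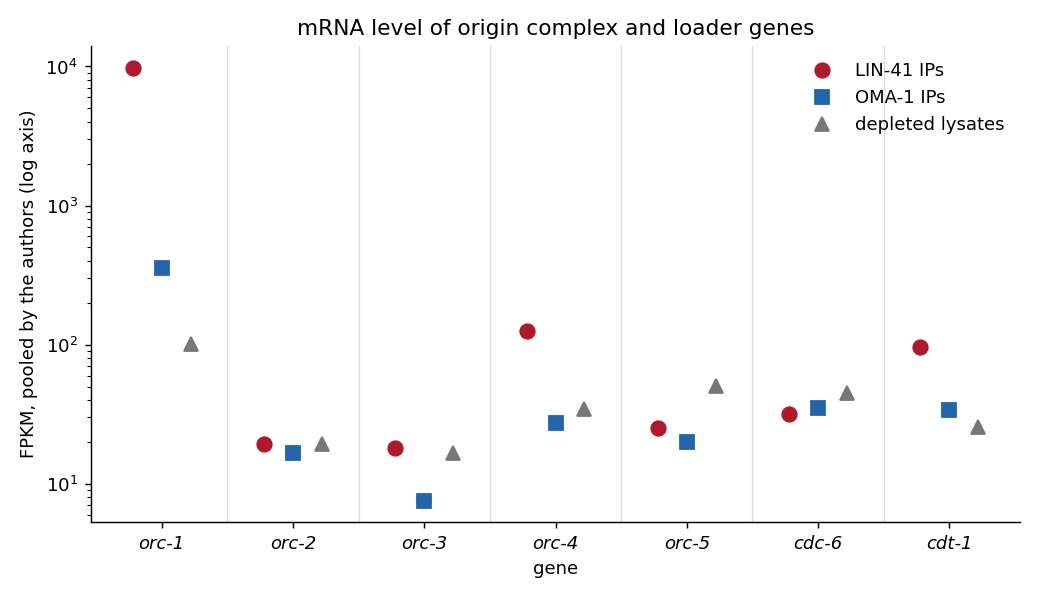
FPKM (log axis, pooled by the authors) of the 7 genes in the LIN-41 IPs (circles), the OMA-1 IPs (squares) and the depleted lysates (triangles). The LIN-41 value of orc-1, 9817 FPKM, lies far above all others, and orc-4 and cdt-1 are the other genes whose LIN-41 value is well above the lysate value.

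Of the other subunits, orc-4 was also higher with LIN-41, but by far less. It encodes a subunit of the same ATPase family. The orc-4 gene (WBGene00012651, III 10646170 to 10648861) had, in the authors' deposited table, 126 FPKM in the LIN-41 IPs, 27.3 FPKM in the OMA-1 IPs and 34.7 FPKM in the lysates. The log2 ratio in the authors' deposited table was 1.86 with LIN-41 (adjusted p = 1.02e-42) and -0.35 with OMA-1. The lower value with OMA-1 passed an approximate one-sided test (adjusted p = 0.0279). That test used a standard error (SE) borrowed from the LIN-41 ratio of orc-4, where it is implied by the deposited p. It did not pass with a wider SE taken from genes of like depth (adjusted p = 0.106). The LIN-41 ratio of orc-4 was 0.90 with equal FPKM totals and 1.52 with quantile normalization.

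The mRNAs of orc-2, orc-3 and orc-5, which encode the remaining subunits, were not enriched in either IP. For orc-2 (WBGene00003882, II 10873931 to 10877683) the authors' deposited table gave 19.2 FPKM in the LIN-41 IPs, 16.6 FPKM in the OMA-1 IPs and 19.4 FPKM in the lysates. Its log2 ratios in the authors' deposited table, -0.01 for LIN-41 and -0.22 for OMA-1, passed no test in either direction. With equal FPKM totals the approximate test called both lower, at -0.96 for LIN-41 (adjusted p = 8.14e-06) and -1.56 for OMA-1 (adjusted p = 2.29e-13). Under that scaling 47.9% of all genes were lower with LIN-41 and 52.2% with OMA-1. With quantile normalization the OMA-1 ratio of orc-2 was called lower (-0.51, adjusted p = 0.0284), and its LIN-41 ratio was not. The authors' deposited table gave orc-3 (WBGene00022488, III 1208133 to 1213650) 18.2 FPKM in the LIN-41 IPs, 7.57 FPKM in the OMA-1 IPs and 16.7 FPKM in the lysates. Thus orc-3 was near the lysate level with LIN-41 (log2 ratio 0.12, adjusted p = 0.656 in the authors' deposited table) and lower with OMA-1 (-1.13, adjusted p = 8.68e-09 by the approximate test). The SE of that test was borrowed from the LIN-41 ratio of orc-3, and with the wider SE its adjusted p was 2.26e-06. The orc-5 mRNA was lower in both IPs. For orc-5 (WBGene00013857, IV 10732832 to 10734588) the authors' deposited table gave 25.1 FPKM in the LIN-41 IPs, 20.0 FPKM in the OMA-1 IPs and 50.2 FPKM in the lysates. The log2 ratio of orc-5 in the authors' deposited table was -0.996 for LIN-41 and -1.32 for OMA-1. The approximate test called both lower, at an adjusted p of 4.39e-06 for LIN-41 and 2.72e-10 for OMA-1.

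The loader genes behaved differently from each other. CDT-1 brings the MCM helicase to the origin and is removed by CUL-4 once S phase starts. For cdt-1 (WBGene00000413, I 3223160 to 3228104) the authors' deposited table gave 96.2 FPKM in the LIN-41 IPs, 33.7 FPKM in the OMA-1 IPs and 25.7 FPKM in the lysates. By the authors' deposited table it was higher with LIN-41 (log2 ratio 1.90, adjusted p = 1.25e-41) and slightly higher with OMA-1 (0.39, adjusted p = 0.0114). The LIN-41 ratio of cdt-1 was 0.94 with equal FPKM totals and 1.67 with quantile normalization. Its OMA-1 ratio turned negative under both scalings, to -0.95 with equal FPKM totals and -0.0048 with quantile normalization. CDC-6 is an ATPase related to ORC-1 that joins the complex before loading. The authors' deposited table gave cdc-6 (WBGene00000382, I 4268070 to 4270287) 31.5 FPKM in the LIN-41 IPs, 35.3 FPKM in the OMA-1 IPs and 44.7 FPKM in the lysates. Its log2 ratios in the authors' deposited table were -0.50 for LIN-41 and -0.34 for OMA-1. The LIN-41 value was lower by the approximate test (adjusted p = 0.0168), and the OMA-1 value did not pass it (adjusted p = 0.116). The OMA-1 value of cdc-6 did pass it with equal FPKM totals (-1.68, adjusted p = 5.81e-21) and with quantile normalization (-1.11, adjusted p = 1.24e-09).

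**Figure D2:**
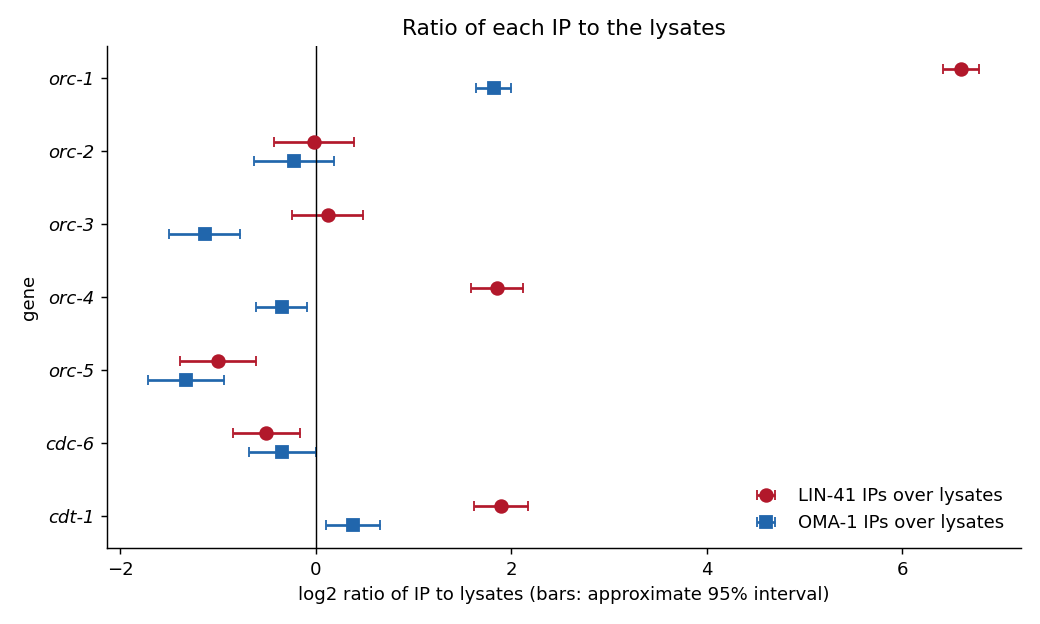
Log2 ratio of the LIN-41 IPs (circles) and the OMA-1 IPs (squares) to the lysates for the 7 genes, with approximate 95% intervals from implied SEs. With LIN-41, orc-1 (6.60), cdt-1 (1.90) and orc-4 (1.86) lie right of 0, and with OMA-1, orc-1 (1.82) and cdt-1 (0.39) do so under the deposited scaling.

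In all, the authors' deposited table called 3 of the 7 genes higher with LIN-41 at an adjusted p below 0.05, where 27.2% of all genes tested were called. It called 2 of 7 higher with OMA-1, where 28.4% of all genes were called. By the approximate test, 2 of 7 were lower with LIN-41, against 15.1% of all genes, and 3 of 7 with OMA-1, against 18.9%. More genes are called at the depth of these 7. Of 2956 genes with a baseMean between that of orc-3 and that of cdt-1, 47.3% were called higher and 24.2% lower with LIN-41, and 47.6% higher and 32.3% lower with OMA-1. The counts therefore say little about the 7 as a group. The median log2 ratio of the 7 genes was 0.12 for LIN-41 and -0.34 for OMA-1, against -0.04 for LIN-41 and -0.07 for OMA-1 over 13955 genes tested in both IPs. Among those genes orc-1 lay at percentile 99.97 of the LIN-41 ratio and 81.6 of the OMA-1 ratio. In the same ranking by LIN-41 ratio, cdt-1 lay at percentile 90.9, orc-4 at 90.5, orc-3 at 55.9, orc-2 at 51.1, cdc-6 at 32.0 and orc-5 at 17.0. With equal FPKM totals, 3 of the 7 were higher and 4 lower with LIN-41, where 12.8% of all genes were higher and 47.9% lower by the same approximate test. Under that scaling 1 of the 7 was higher and 6 were lower with OMA-1, where 14.1% of all genes were higher and 52.2% lower. With quantile normalization 3 of the 7 were higher and 2 lower with LIN-41, against 23.2% and 22.8% of all genes. Of the OMA-1 ratios none of the 7 was then above 0 and 5 were lower, where 24.9% of all genes were higher and 27.3% lower.

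The IPs were then compared directly, through the LIN-41 minus OMA-1 difference of the log2 ratios, in which the lysates cancel. The IPs of each protein came from a genotype of their own, so protein and genotype cannot be told apart in this difference. By an approximate two-sided normal test, 4 of the 7 mRNAs were higher with LIN-41 than with OMA-1, where 12.5% of all genes tested were, and 25.7% of those at like depth. The difference was 4.78 ± 0.131 (approximate SE) for orc-1, 2.20 ± 0.190 for orc-4, 1.51 ± 0.198 for cdt-1 and 1.26 ± 0.263 for orc-3. The adjusted p was 9.92e-288 for orc-1, 6.86e-30 for orc-4, 2.30e-13 for cdt-1 and 9.49e-06 for orc-3. The LIN-41 SE of orc-1 was borrowed from its OMA-1 ratio, because a p listed as 0 gives only an upper limit, here 0.172. The mRNA of orc-1 was thus 27.6-fold, that of orc-4 4.62-fold, that of cdt-1 2.86-fold and that of orc-3 2.41-fold as abundant in the LIN-41 IPs as in the OMA-1 IPs. For orc-3 the LIN-41 level was close to that of the lysates and the OMA-1 level was below it.

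No call was made for the other 3 genes. The difference was 0.21 for orc-2 (approximate 95% interval -0.37 to 0.79), 0.32 for orc-5 (-0.22 to 0.87) and -0.16 for cdc-6 (-0.65 to 0.32). These intervals are wide enough that the 3 genes are not shown to be alike in both IPs. None of the 7 was higher with OMA-1 than with LIN-41, with or without adjustment. By the same normal test, 0 of the 7 genes had an unadjusted p below 0.05 in that direction. Of all genes 19.7% were called higher with OMA-1, and of those at like depth 29.9%. Over all genes tested in both IPs the median difference was 0.03, and over the 7 genes it was 1.26. Equal FPKM totals move every difference by 0.38 towards LIN-41, after which orc-5 was also called (0.71, adjusted p = 0.0346).

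**Figure D3:**
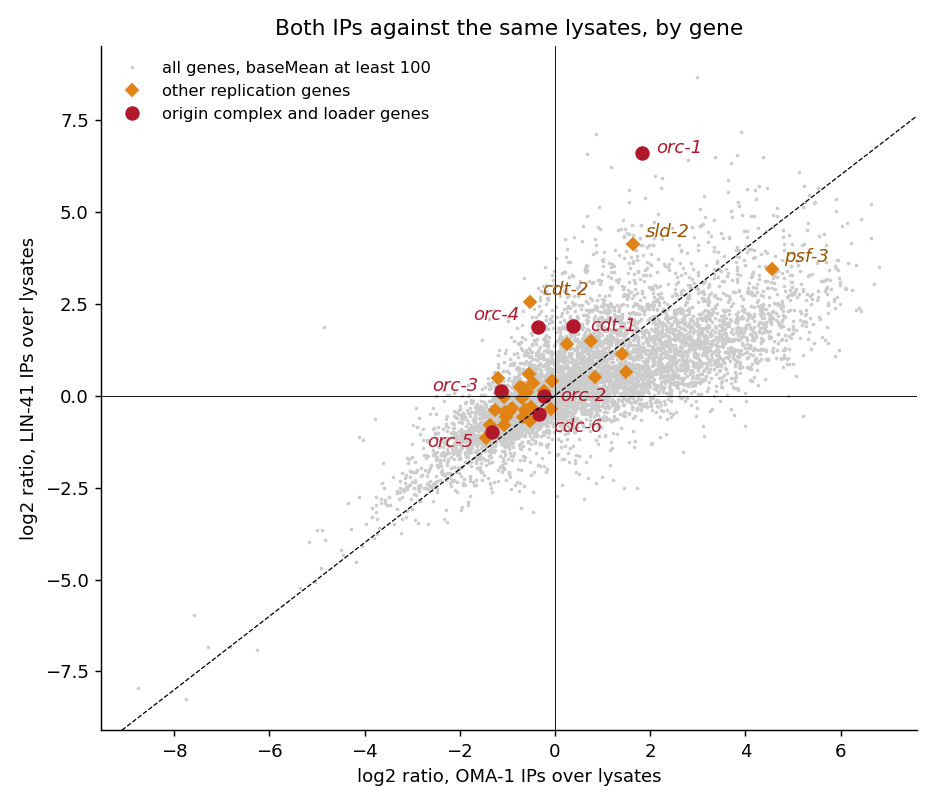
Log2 ratio over the lysates with OMA-1 (x axis) and with LIN-41 (y axis) for genes with a baseMean of at least 100 (grey), the 7 origin complex and loader genes (circles) and other replication genes (diamonds), with a dashed line of equal ratios. The mRNA of orc-1 stands far above the line at 1.82 and 6.60, whereas orc-2, orc-5 and cdc-6 lie within 0.4 of it.

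Set against its partners, orc-1 was the most abundant of the 7 mRNAs in each fraction, but its lead differed widely. In the LIN-41 IPs the next gene, orc-4, reached 1.28% of its FPKM and the lowest, orc-3, 0.186%. In the OMA-1 IPs the next gene was cdc-6 at 9.93%, and orc-3 was again lowest at 2.13%. In the lysates orc-5 reached 49.9% of the orc-1 level and orc-3 reached 16.6%. Of the summed FPKM of the 5 orc genes, orc-1 made up 98.1% in the LIN-41 IPs, 83.3% in the OMA-1 IPs and 45.4% in the lysates. The other 6 genes were spread over a narrower range, from 18.2 to 126 FPKM in the LIN-41 IPs, from 7.57 to 35.3 FPKM in the OMA-1 IPs and from 16.7 to 50.2 FPKM in the lysates.

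The gap between the log2 ratio of orc-1 and that of each other gene was larger than its approximate error in both IPs. With LIN-41 the gap was smallest to cdt-1, 4.71 ± 0.167 (approximate 95% interval 4.38 to 5.03), followed by orc-4 at 4.75 ± 0.163, and largest to orc-5, 7.60 ± 0.219. With OMA-1 it was smallest to cdt-1, 1.43 ± 0.169 (1.10 to 1.76), and largest to orc-5, 3.14 ± 0.219. All 6 intervals excluded 0 with LIN-41 and all 6 with OMA-1, although with quantile normalization the OMA-1 gap to cdt-1 no longer did. The LIN-41 minus OMA-1 difference of orc-1 exceeded that of orc-4 by 2.58 ± 0.230 and that of cdc-6 by 4.94 ± 0.281, the smallest and largest of the 6 gaps. The ratios of orc-4 and cdt-1 with LIN-41, 1.86 and 1.90, lay well within each other's intervals (1.59 to 2.12 for orc-4 and 1.62 to 2.17 for cdt-1).

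The enriched subunit genes orc-1 and orc-4 are neighbours on chromosome III. Both lie on the plus strand, and orc-4 begins after a gap of 111 nt behind the end of orc-1. The next gene on that strand, Y39A1A.14, follows orc-4 after 657 nt. The authors' deposited table gave Y39A1A.14 170 FPKM in the LIN-41 IPs, 66.6 FPKM in the OMA-1 IPs and 49.9 FPKM in the lysates. Its log2 ratio in the authors' deposited table was 1.77 with LIN-41 (adjusted p = 1.91e-33) and 0.42 with OMA-1 (adjusted p = 0.00936), the second of which turned to -0.92 with equal FPKM totals and -0.60 with quantile normalization. On the other side, dhs-11 lies on the minus strand, 263 nt from the start of orc-1. The log2 ratio of dhs-11 in the authors' deposited table was 0.87 for LIN-41 (adjusted p = 0.0182), which turned to -0.08 with equal FPKM totals, and -1.42 with OMA-1.

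The level of orc-4 was thus small beside that of its neighbour in the LIN-41 IPs. There it reached 1.28% of the FPKM of orc-1, against 7.68% in the OMA-1 IPs and 34.5% in the lysates. The rise of orc-4 over the lysates, 91.3 FPKM, equalled 0.930% of the orc-1 level in the LIN-41 IPs. How the authors' counting assigned reads that run past the end of orc-1 is not given in the sources used here, and the part of such reads in the orc-4 value was not tested. Beside cdt-1 lie rom-5, on the same strand, and txl-1, on the other. In the authors' deposited table each had a LIN-41 log2 ratio of 0.07, and neither was called (adjusted p = 0.859 for rom-5 and 0.862 for txl-1). The part of reads from neighbours in the cdt-1 value was not tested either.

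**Figure D4:**
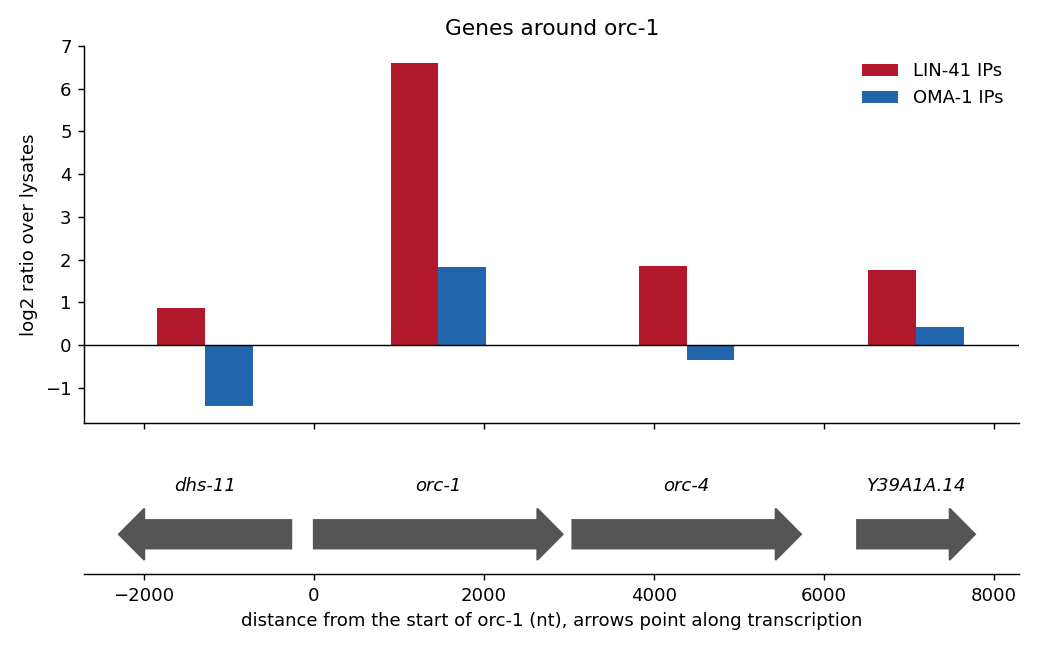
Log2 ratio over the lysates (upper panel, LIN-41 bars left of OMA-1 bars) of orc-1 and its neighbours, above a map of the genes by distance from the start of orc-1 in nt, with arrows along transcription. With LIN-41 the value is 6.60 at orc-1, 1.86 at orc-4 and 1.77 at Y39A1A.14, all on the plus strand.

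The length of the annotated 3′ UTR did not sort the 7 genes by their ratios. The longest 3′ UTR of a gene, the part of an mRNA that RNA-binding proteins of the germ line often contact, was 99 nt for orc-1, against a median of 149 nt over 13697 coding genes. It was 48 nt for orc-4 and 459 nt for cdt-1, the other genes enriched with LIN-41. Among the genes that were not, it was 51 nt for orc-3, 71 nt for orc-5, 197 nt for cdc-6 and 369 nt for orc-2. Thus both the shortest and the longest of the 7 belonged to enriched mRNAs.

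A pair of further columns in the deposited table came from other studies. An earlier OMA-1 IP had been set over lysate. Per the file headers it is not given which lysate libraries served it, so its ratios may share their denominator with those above. Its log2 ratio in the authors' deposited table was 1.76 for orc-1, 0.23 for cdt-1, -0.36 for orc-2, -0.57 for orc-4, -0.73 for cdc-6, -1.03 for orc-3 and -1.58 for orc-5. In that IP too, orc-1 was the only one of the 7 with a ratio above 1. The other column compared fem-3(q96gf) gonads, which make sperm, with fog-2(q71) gonads, which make oocytes. All 7 genes were lower in the fem-3 gonads at an adjusted p below 0.05 in the authors' deposited table, as were 28.2% of all genes with a value. The log2 change in the authors' deposited table was -1.71 for cdt-1, -1.36 for cdc-6, -1.31 for orc-2, -1.19 for orc-3, -1.16 for orc-1, -0.97 for orc-4 and -0.32 for orc-5. The value of orc-1 thus lay among those of its partners in the gonads, unlike in the LIN-41 IPs.

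Of 36 other genes of replication listed for comparison, 32 were in the table, among them the MCM helicase, the factors that activate it, the DNA polymerases and the clamp. The authors' deposited table called 11 of the 32 higher with LIN-41, and 11 were lower by the approximate test (median log2 ratio 0.02), where 27.2% of all genes tested were higher and 15.1% lower. It called 6 higher with OMA-1, and 22 were lower by the approximate test (median -0.59). Over all genes, 28.4% were higher and 18.9% lower with OMA-1. Among genes with a baseMean between that of orc-3 and that of cdt-1, 47.3% were higher and 24.2% lower with LIN-41. With OMA-1, 47.6% of them were higher and 32.3% lower. No share was computed at the depth of the 32 genes themselves. With equal FPKM totals 5 of the 32 were higher and 25 lower with LIN-41, against 12.8% and 47.9% of all genes, and 1 was higher and 28 lower with OMA-1, against 14.1% and 52.2% of all genes. With quantile normalization 5 were higher and 22 lower with LIN-41, against 23.2% and 22.8% of all genes. With OMA-1, 3 were then higher and 27 lower, against 24.9% and 27.3% of all genes. Directly compared, 17 of the 32 were higher with LIN-41 than with OMA-1 and 1 was higher with OMA-1, with a median difference of 0.55. The shares of all genes were 12.5% for LIN-41 and 19.7% for OMA-1. Between the baseMean of orc-3 and that of cdt-1 the shares were 25.7% and 29.9%. With quantile normalization the counts of the 32 were 22 and 0, against 16.5% and 16.3% of all genes. With equal FPKM totals they were 22 and 1, against 20.9% and 14.8%, so that the scaling moved all genes towards LIN-41 as well.

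The largest LIN-41 ratios of that list belonged to genes that act after loading. SLD-2 helps to turn the loaded helicase on, and PSF-3 is a subunit of the GINS complex that travels with it. The sld-2 mRNA had, in the authors' deposited table, 703 FPKM in the LIN-41 IPs, 126 FPKM in the OMA-1 IPs and 40.3 FPKM in the lysates, with log2 ratios of 4.12 for LIN-41 and 1.64 for OMA-1. The OMA-1 ratio of sld-2 was 0.31 with equal FPKM totals and 0.64 with quantile normalization, and its LIN-41 ratio was at least 3.16. The difference of sld-2 was 2.47 ± 0.180 (adjusted p = 2.59e-41). The psf-3 mRNA had, in the authors' deposited table, 467 FPKM in the LIN-41 IPs, 1004 FPKM in the OMA-1 IPs and 42.6 FPKM in the lysates. It was the gene of the list that was higher with OMA-1 (difference -1.10 ± 0.156, adjusted p = 1.50e-11), and with quantile normalization that difference was -0.29. The other GINS genes were lower than psf-3 in both IPs: with LIN-41 the log2 ratio in the authors' deposited table was 1.48 for psf-1, 0.63 for psf-2 and -0.81 for sld-5. With equal FPKM totals the LIN-41 ratio was 0.53 for psf-1 and -0.32 for psf-2.

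The genes cdt-2, ddb-1, cul-4 and gmn-1, whose products limit CDT-1, were among the 17 of 32 that were higher with LIN-41 than with OMA-1. They were grouped after their values were seen, and nothing is read from their number. CDT-2 is the substrate receptor that brings CDT-1 to the CUL-4 ligase in other animals. The cdt-2 mRNA had, in the authors' deposited table, 234 FPKM in the LIN-41 IPs, 27.6 FPKM in the OMA-1 IPs and 39.8 FPKM in the lysates. Its difference of 3.08 ± 0.160 (adjusted p = 1.70e-80) was the largest of the list. The ligase genes ddb-1 (difference 1.67 ± 0.155) and cul-4 (1.03 ± 0.234) and the geminin gene gmn-1 (0.98 ± 0.247) were also higher with LIN-41 than with OMA-1, with adjusted p-values of 9.33e-26, 5.91e-05 and 0.000379. For these 3 genes the LIN-41 level was near that of the lysates or modestly above it, with log2 ratios of 0.48 for ddb-1, 0.24 for gmn-1 and -0.05 for cul-4 in the authors' deposited table. Of these, ddb-1 was called higher (adjusted p = 3.15e-05). All 3 of these LIN-41 ratios were negative under both scalings, at -0.47 for ddb-1, -0.71 for gmn-1 and -1.0 for cul-4 with equal FPKM totals, and at -0.28 for ddb-1, -0.88 for gmn-1 and -0.41 for cul-4 with quantile normalization.

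The 6 helicase genes did not share the high LIN-41 ratio of orc-1. The authors' deposited table called mcm-7 higher in both IPs, with log2 ratios of 1.14 for LIN-41 and 1.40 for OMA-1. With equal FPKM totals the ratios of mcm-7 were 0.19 for LIN-41 and 0.064 for OMA-1, and with quantile normalization 0.088 for LIN-41 and -0.53 for OMA-1. The other 5 ratios in the authors' deposited table lay between -0.58 and 0.12 for LIN-41 and between -1.05 and -0.23 for OMA-1. With OMA-1, 4 of the 5 were lower by the approximate test, where 18.9% of all genes were. Of genes with a baseMean between that of orc-3 and that of cdt-1, 32.3% were lower. Directly compared, 3 of the 6 were higher with LIN-41, where 12.5% of all genes were, and 25.7% of those in that baseMean range. No share was computed at the depth of the helicase genes. The 3 were mcm-5 (difference 0.60), mcm-3 (0.58) and mcm-4 (0.53). With quantile normalization mcm-2 (0.68), mcm-6 (0.76) and mcm-7 (0.62, against -0.26 as deposited) were called as well, where 16.5% of all genes were. The mcm-10 gene, whose protein acts on the helicase at the start of replication, was called higher with LIN-41 in the authors' deposited table (log2 ratio 1.40, adjusted p = 1.58e-29), and its ratio was 0.45 with equal FPKM totals.

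**Figure D5:**
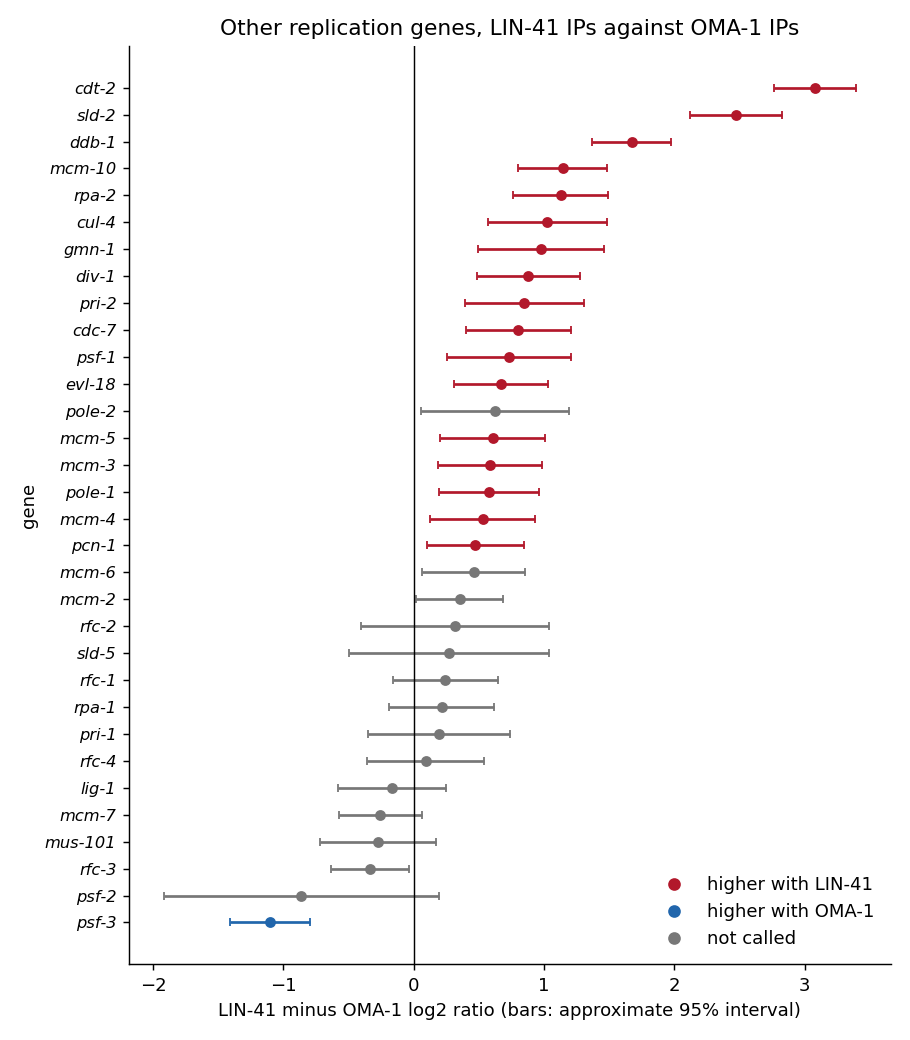
LIN-41 minus OMA-1 difference of the log2 ratios for the 32 other replication genes, with approximate 95% intervals from implied SEs, coloured by the call of the approximate test. Values run from 3.08 for cdt-2 at the top to -1.10 for psf-3 at the bottom, and 17 genes are called higher with LIN-41.

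The genes whose pair of ratios was most like that of orc-1 were not replication genes by name. Among 6767 other genes with a baseMean of at least 100, likeness was taken as the distance between the pairs of log2 ratios with LIN-41 and OMA-1. The nearest were C06H2.7 (distance 0.68), spn-4 (0.76), CC8.2 (0.81), T09B9.1 (1.00) and mis-12 (1.05). In the authors' deposited table, C06H2.7 had log2 ratios of 5.98 for LIN-41 and 2.09 for OMA-1, and spn-4, whose product binds RNA in the early embryo, had 6.21 for LIN-41 and 1.17 for OMA-1. The gene mis-12 encodes a kinetochore protein and had 5.59 for LIN-41 and 1.56 for OMA-1 in the authors' deposited table. The distances rest on these 2 ratios alone, which share the lysates.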

How the data were processed

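RNA-seq libraries from IPs and lysates were compared through the authors' table. Per the submitters' processing notes, STAR 2.4.2a, Trimmomatic 0.32, DESeq2 1.12.3 and SAMtools 1.0 were used with the build WBcel235, and the notes give no role or order. Which program counted reads, and whether by strand, is not given in the sources used here. Per the file headers, the authors deposited log2 ratios of each IP over the depleted lysates. The authors also deposited Benjamini-Hochberg adjusted p-values, FPKM values pooled over libraries, and baseMean, a mean signal in reads over all samples. A further 4 columns of other studies were not used. Library totals are unknown, so baseMean stands for depth.

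All 7187 genes of the LIN-41 comparison and 8208 of the OMA-1 comparison that were tested and did not exceed a log2 ratio of 0 had a deposited p of 1, which makes it a test of enrichment only. Approximate tests were therefore computed over the whole table (Python 3.11.15, scipy 1.17.1). The deposited p-values were turned back to one-sided raw p-values, then to z, and an implied SE was taken as log2 ratio over z. Where this was not possible, the SE of the other IP was used, or else the value at percentile 95 of the 201 genes nearest in baseMean. That last source served orc-2, orc-5 and cdc-6. The SE of the other IP served orc-1 with LIN-41, and orc-3 and orc-4 with OMA-1. Lower ratios were tested one-sided and the LIN-41 minus OMA-1 difference two-sided, with Benjamini-Hochberg adjustment over all genes tested. The SE of a difference was the root of the summed squared SEs. It takes the ratios as independent although both share the lysates, so the widths of those intervals rest in part on this choice. These p-values measure the spread the authors' fit saw between libraries, which may be technical, since no label says that the IPs came from separate cultures. The difference test was also run on simulated data. These were drawn with normal errors from the same implied SEs, so the run cannot show whether those SEs fit the libraries.

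Gene positions came from the Ensembl 115 annotation of WBcel235, which held 15914 of the 16031 gene IDs. The genes named were the 7 chosen by name, some of their neighbours, the 5 genes most like orc-1 and a part of the replication list. The rule for that list was a call in the direct comparison or a log2 ratio of at least 2 in size. Not every gene that met it is named in the text, a choice made with the values known. From the helicase and GINS groups, mcm-2, mcm-6, mcm-7 and the other GINS genes were named after their values were seen. The genes mcm-3, mcm-4, mcm-5 and mcm-10 fall under the rule. The genes and lists were chosen with earlier results of these data known. The alternatives were other scalings of the FPKM columns, a baseMean minimum of 100, a pseudocount of 1 FPKM, and other sources or sides for the implied SE.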

Additional observations from a re-analysis of the deposited data

Results flagged for a closer look

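The ratio over the lysates differed between LIN-41 and OMA-1 IPs for 4 of the 7 genes, by the approximate test of the difference. Protein and genotype cannot be told apart in it. All 4 were higher with LIN-41, as were 12.5% of all genes tested and 25.7% of those at like depth. The LIN-41 minus OMA-1 log2 difference was 4.78 for orc-1, 2.20 for orc-4, 1.51 for cdt-1 and 1.26 for orc-3. For orc-4 the ratios had opposite signs, 1.86 with LIN-41 and -0.35 with OMA-1.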

How the results depend on the processing

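Where a log2 ratio of 0 lies rests on the authors' scaling. Equal FPKM totals outside the mitochondrial genome shift each log2 ratio by -0.95 for LIN-41 and -1.33 for OMA-1, and the ratio then turned to -0.83 for orc-3 with LIN-41 and -0.95 for cdt-1 with OMA-1, while the LIN-41 minus OMA-1 difference of cdc-6 became 0.22 and passed no test. Under that scaling 1 of the 7 genes was higher and 6 were lower with OMA-1, where 14.1% and 52.2% of all genes were. With LIN-41, 4 were lower, where 47.9% of all genes were. With quantile normalization 0 of the 7 were higher and 5 were lower with OMA-1, where 24.9% and 27.3% of all genes were. The OMA-1 ratio of orc-1 then became -0.038 and that of cdt-1 -0.0048, and the LIN-41 ratio of orc-3 became -0.048. The 3 genes higher with LIN-41 over the lysates and the 4 genes higher with LIN-41 than with OMA-1 under the deposited scaling kept their calls under both. A baseMean minimum of 100, a pseudocount of 1 FPKM and a deposited p read as two-sided changed no call on a single gene, and the wider SE ended the OMA-1 call on orc-4. No paired analysis was possible because the table holds no values for single libraries. For the same reason no replicate could be left out. The widest approximate SEs of the difference were 0.295 for orc-2, 0.280 for orc-5 and 0.263 for orc-3. Those of orc-2 and orc-5 came from genes of like depth, so the part of depth and of the source of the SE in them was not tested.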

Other observations

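As orc-4 lies close behind orc-1, genes next to others with a high LIN-41 ratio were also listed, a choice made after the data were seen. Taken were called genes with a LIN-41 log2 ratio of at least 4 and neighbours on the same strand within 1000 nt. The 43 neighbours that lie downstream had a median LIN-41 log2 ratio of 0.64, of which the authors' deposited table called 20 higher, where 27.2% of all genes were called. The 39 neighbours that lie upstream had a median of 0.31, and 14 were called, beside the same 27.2% of all genes. Of genes with a baseMean between that of orc-3 and that of cdt-1, 47.3% were called higher with LIN-41. The neighbours were not matched for depth, so nothing is read from these counts. The 43 include orc-4 itself at 1.86, and no test was made of these medians.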
